A study of Homo sapiens with 24 samples.

Results

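Mitosis and spindle genes were followed in ARPE-19, a human line derived from retinal pigment epithelium and long in use, after siRNA against Pink1, Nrf2 or both. The 34 genes were taken by symbol from a fixed list of proteins that act in mitotic entry, the spindle, the kinetochore, chromosome separation and cytokinesis. That list was chosen with earlier results of these data known, which bears on its counts set against all tested genes. All 34 were found among the 24053 genes of the expression table, and all 34 had a mean of at least 1 TPM (a transcript abundance scaled by gene length and by the total of the library), as did 13810 genes in all, which were the genes tested.

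Proliferating cells switch this program on in G2. Cyclin B and CDK1 drive entry into mitosis, the Aurora and Polo kinases build the spindle, kinetochores attach chromosomes to microtubules while the spindle checkpoint waits, and the anaphase-promoting complex then destroys the cyclins so that the central spindle and the contractile ring can divide the cell. Many of these genes are repressed in resting cells through a short promoter element, the CHR (cell cycle genes homology region), bound by the DREAM and MuvB complexes, and CCAAT boxes bound by NF-Y often lie upstream of it. Retinal pigment epithelium in the adult eye divides little, whereas ARPE-19 cells divide in culture.

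The 4 groups received siRNA against Pink1 alone, against Nrf2 alone, against both (Nrf2-Pink1 siRNA) or a scramble control, each with 3 biological samples, each of those sequenced as 2 technical replicates, whose mean was used. PINK1 is a mitochondrial kinase that marks damaged mitochondria for removal, and NRF2, made by NFE2L2, is a transcription factor of the antioxidant response. The sample labels call the treated groups knockouts, while the study's design text speaks of siRNA. The growth protocol describes a scratch wound at 90% confluence, and no label says if RNA was taken from wounded wells. All groups share the cell line, and nothing says whether the biological replicates came from separate cultures on separate days, so the p-values measure the spread between these samples.

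PINK1 averaged 14.6 ± 3.22 TPM with Pink1 siRNA, 57.2 ± 8.35 TPM with Nrf2 siRNA and 18.7 ± 2.93 TPM with Nrf2-Pink1 siRNA, against 55.8 ± 1.93 TPM with scramble (SD, n = 3 each). NFE2L2 averaged 68.7 ± 4.02 TPM with Pink1 siRNA, 20.0 ± 7.72 TPM with Nrf2 siRNA and 28.9 ± 6.16 TPM with Nrf2-Pink1 siRNA, against 80.7 ± 7.69 TPM with scramble (SD, n = 3 each). Keratins of the epithelium were abundant, with KRT8 between 728 and 1084 TPM over the 12 samples, whereas RPE65, a defining gene of mature retinal pigment epithelium, reached at most 0.36 TPM. Of the 11 epithelial markers 10 were tested, and the pigment enzyme genes TYRP1 and TYR were called higher in every siRNA group, with 0 of the list called lower. Calls in either direction came to 0.471%, 0.333% and 0.753% of all tested genes with Pink1, Nrf2 and Nrf2-Pink1 siRNA. In each comparison against scramble 7 of the 10 had a log2 difference above 0 and 3 below. Of all tested genes 52.7%, 52% and 50.8% were above 0 with Pink1, Nrf2 and Nrf2-Pink1 siRNA. TYRP1 averaged 45.5 ± 6.70 TPM with Pink1 siRNA, 23.2 ± 1.84 TPM with Nrf2 siRNA and 26.6 ± 7.11 TPM with Nrf2-Pink1 siRNA, against 9.91 ± 1.70 TPM with scramble (adjusted p in limma 0.000560, 0.0248 and 0.00856). TYR averaged 3.71 ± 0.354, 2.65 ± 0.550 and 4.09 ± 0.634 TPM in the same siRNA groups, against 0.402 ± 0.183 TPM with scramble, which is near the floor (adjusted p 0.00420, 0.0236 and 0.00301). KRT18, the other keratin of the list, averaged 699 ± 140, 564 ± 93.0 and 770 ± 78.2 TPM in the same groups, against 811 ± 69.3 TPM with scramble (adjusted p in limma 0.634, 0.225 and 0.894). The epithelial list summed to between 1351 and 2199 TPM in the 9 siRNA samples and between 1733 and 1971 TPM in the scramble samples, and its part in the results was not tested. Of the 6 blood cell markers 2 were in the table: PTPRC reached at most 0.445 TPM and CD68 averaged 28.9 ± 3.19 TPM with Pink1 siRNA, 66.6 ± 33.5 TPM with Nrf2 siRNA, 40.4 ± 10.4 TPM with Nrf2-Pink1 siRNA and 30.3 ± 9.80 TPM with scramble. The blood list summed to between 25.3 and 104.75 TPM in the 9 siRNA samples and between 19.3 and 37.9 TPM in the scramble samples, and its part in the results was not tested. The 4 endothelial markers, of which 2 were found, summed to at most 2.47 TPM, and the 5 neuron and photoreceptor markers, of which 1 was found, to at most 0.58 TPM. A single identifier, ENSG00000226958, held between 15.5% (Nrf2-Pink1 siRNA replicate 3) and 41.4% (Nrf2-Pink1 siRNA replicate 1) of all TPM in a sample. Because TPM are shares of a fixed total, the TPM of all other genes together is lower where this identifier takes more. Results are therefore also given with it removed and the rest rescaled. TPM do not carry the number of reads, so the depth behind each value is unknown.

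Promoter sequence shows how much of the list carries the cell cycle elements. RefSeq windows from 250 bases before to 50 bases after the start (GRCh38.p14) were at hand for 28 of the 34 genes, and the 4 below were chosen for genes with a large difference in the data (KIF20A, ANLN, MAD2L1) and as an example with both CHR forms and several CCAAT boxes (CCNB2). Capitals mark CHR (TTTGAA or TTTAAA) and CCAAT matches on either strand, so that TTCAAA and ATTGG are minus-strand matches. CCNB2 is at chr15:59104896-59105195 (plus strand), KIF20A at chr5:138178862-138179161 (plus strand), ANLN at chr7:36389612-36389911 (plus strand) and MAD2L1 at chr4:120066799-120067098 (minus strand), each written 5′ to 3′ along its own gene.
CCNB2: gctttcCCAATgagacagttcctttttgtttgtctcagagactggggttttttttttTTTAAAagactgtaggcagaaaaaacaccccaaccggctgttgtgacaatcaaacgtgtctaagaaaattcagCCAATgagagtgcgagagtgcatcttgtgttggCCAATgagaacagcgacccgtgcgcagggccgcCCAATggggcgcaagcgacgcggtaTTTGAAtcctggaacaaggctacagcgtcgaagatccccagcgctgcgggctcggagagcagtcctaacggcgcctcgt
KIF20A: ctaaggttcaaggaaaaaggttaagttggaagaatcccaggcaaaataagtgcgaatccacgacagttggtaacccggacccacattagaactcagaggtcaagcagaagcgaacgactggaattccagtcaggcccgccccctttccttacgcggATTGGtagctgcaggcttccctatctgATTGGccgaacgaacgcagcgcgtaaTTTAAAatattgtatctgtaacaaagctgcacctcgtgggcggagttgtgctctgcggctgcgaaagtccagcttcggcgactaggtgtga
ANLN: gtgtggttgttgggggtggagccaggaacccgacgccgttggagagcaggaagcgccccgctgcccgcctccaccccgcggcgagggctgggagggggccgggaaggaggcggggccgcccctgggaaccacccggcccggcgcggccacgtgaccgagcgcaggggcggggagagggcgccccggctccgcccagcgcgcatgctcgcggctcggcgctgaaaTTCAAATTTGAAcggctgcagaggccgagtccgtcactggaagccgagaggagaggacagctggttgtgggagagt
MAD2L1: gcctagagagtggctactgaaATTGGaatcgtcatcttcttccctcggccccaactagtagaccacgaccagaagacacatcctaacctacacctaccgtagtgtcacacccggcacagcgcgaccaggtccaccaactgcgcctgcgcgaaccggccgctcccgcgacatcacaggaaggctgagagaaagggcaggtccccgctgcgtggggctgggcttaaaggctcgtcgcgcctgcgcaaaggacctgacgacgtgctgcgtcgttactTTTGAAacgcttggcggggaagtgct

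In these windows CCNB2, which makes cyclin B2, held a TTTGAA that begins 29 bases before the start, with CCAAT boxes beginning 54, 87, 120 and 244 bases before it and a TTTAAA at 193 bases before it. KIF20A, a kinesin of the central spindle, held TTTAAA 41 bases before the start and minus-strand CCAAT boxes at 67 and 94 bases before it. ANLN, the scaffold of the contractile ring, had adjoining CHR matches on the minus and plus strands, 26 and 20 bases before the start, and no CCAAT match. MAD2L1, the checkpoint protein MAD2, had its TTTGAA 25 bases after the start and a minus-strand CCAAT 229 bases before it.

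Among the 28 members with a window, 21 held TTTGAA on either strand, a sequence found in 13.7% of the 9943 tested genes with a window. TTTAAA, which reads the same on both strands, was in 11 members and in 11% of the tested genes, and 25 members held one or the other, against 21.2% of the tested genes. CCAAT was in 22 members (43.6% of tested genes), and 19 members held both a CCAAT and a CHR match (8.87%). The core of the antioxidant response element, TGACNNNGC on either strand, to which NRF2 binds with small MAF proteins, matched in 6 members (ANLN, KIF23, MKI67, NDC80, NUSAP1 and PRC1), against 19.5% of tested genes. A match is a run of letters in the window and no more.

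The program was well expressed in every group. With scramble siRNA the levels ran from CCNB1 at 184 ± 6.88 TPM and PRC1 at 119.7 ± 2.23 TPM (mean ± SD, n = 3 biological samples, here and throughout) down to TTK at 5.77 ± 0.640 TPM and INCENP at 5.0 ± 2.35 TPM. The 4 genes after CCNB1 and PRC1 were UBE2C, TOP2A, ANLN and CDK1, between 65.0 and 88.4 TPM. TOP2A, ANLN and CDK1 are neighbours in this order whose ranges over the scramble samples overlap, as do those of TTK and INCENP. Summed over the 34 genes, TPM came to 1492 ± 56.6 with Pink1 siRNA, 1208 ± 77.7 with Nrf2 siRNA, 1331 ± 357 with Nrf2-Pink1 siRNA and 1436 ± 61.1 with scramble. In bulk RNA, fewer cells in division and less message per dividing cell cannot be told apart.

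**Figure D1:**
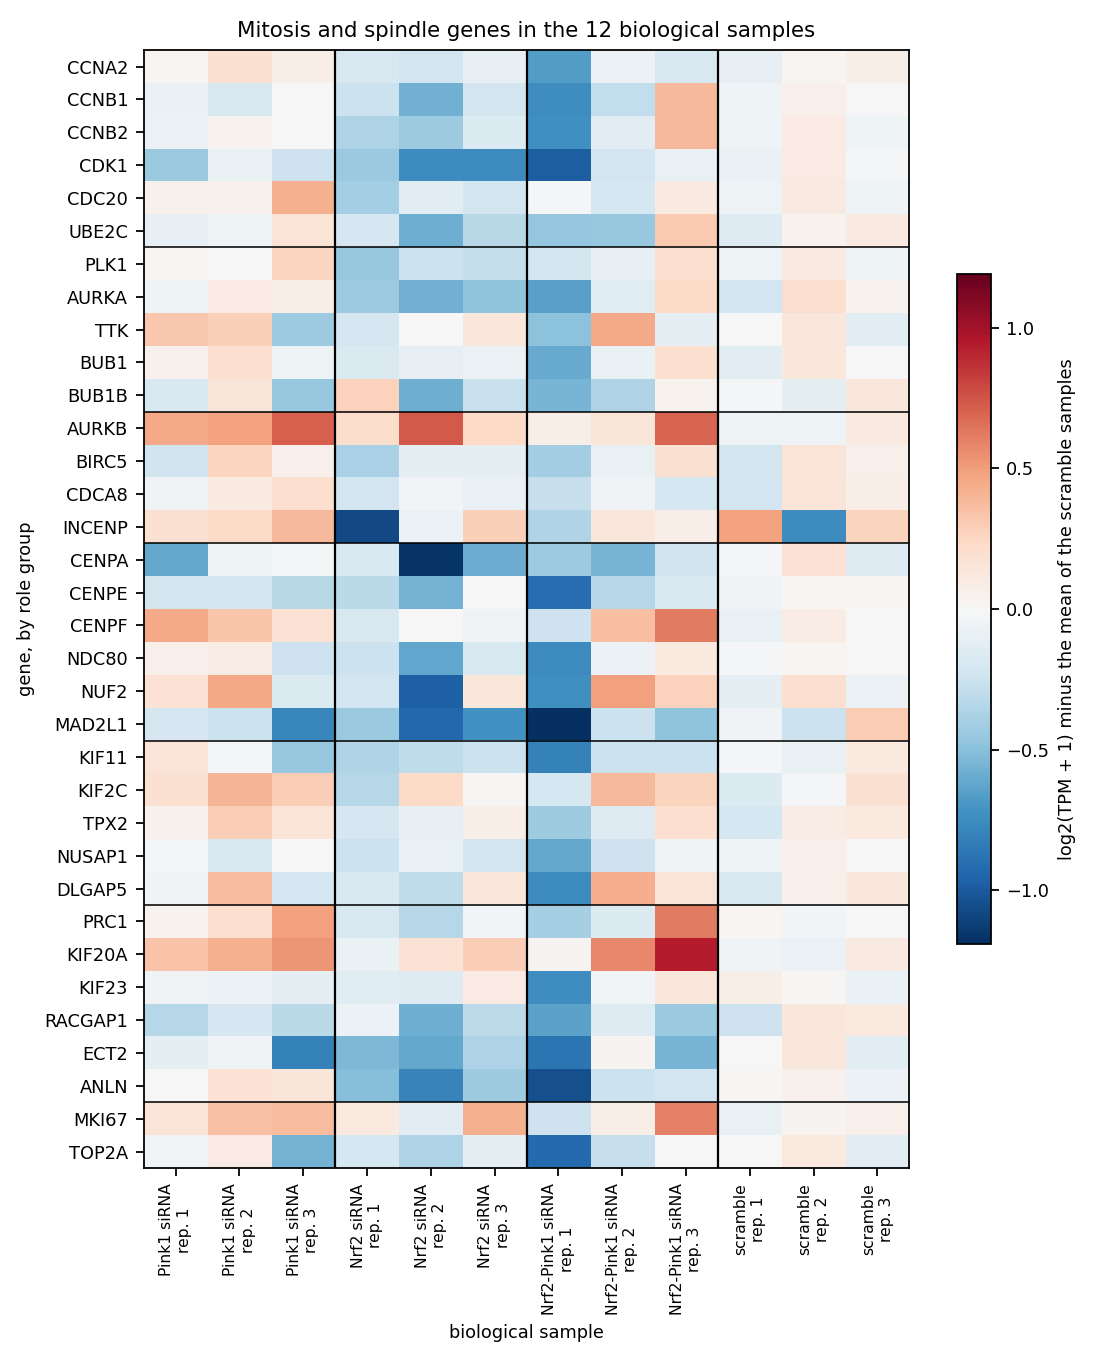
Each cell is log2(TPM + 1) of a gene (rows, by role) in a biological sample (columns), minus the mean of that gene over the 3 scramble samples; red is higher and blue lower. The Nrf2 siRNA columns are mostly pale to mid blue, Nrf2-Pink1 siRNA replicate 1 is the bluest column, and the AURKB and KIF20A rows run red across most siRNA columns.

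No member was called in any of the 7 comparisons made, at an adjusted p under 0.05 in limma fitted to all tested genes, with Benjamini-Hochberg adjustment. With Nrf2 siRNA against scramble, 0 of 34 were called (0.333% of all tested genes were) and the lowest adjusted p of a member was 0.216. At an unadjusted p under 0.05, 6 of the 34 were lower (CDK1, ANLN, MAD2L1, CENPA, AURKA and PLK1) and 0 higher, against 4.23% of all tested genes lower and 7.99% higher. Counted in either direction, those 6 became 12 with median-of-ratios rescaling, 11 with ENSG00000226958 removed, 14 with only the groups compared in the fit and 2 to 10 leaving out a sample, fewest without Nrf2 siRNA replicate 2 and most without Nrf2-Pink1 siRNA replicate 1. The count over all tested genes rose as well, from 1687 to 2065 with the rescaling, 2021 with the identifier removed and 2303 with only the groups compared. It was 1267 without Nrf2 siRNA replicate 2 and 2137 without Nrf2-Pink1 siRNA replicate 1. The fitted log2 difference was below 0 for 31 of the 34, against 47.5% of all tested genes, and its median was -0.24, against 0.02 over all tested genes. All 3 Nrf2 siRNA samples lay below all 3 scramble samples for 16 members, against 9.26% of tested genes, and above them for 1, AURKB, against 13.6%. Every difference here and below is on the log2(TPM + 1) scale, which understates the change of low genes.

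With Pink1 siRNA, 0 of 34 were called (0.471% of tested genes were), and the lowest adjusted p was 0.254 in limma. At an unadjusted p under 0.05, 2 members were higher, AURKB and KIF20A, and 0 lower, where 7.65% of all tested genes were higher and 4.57% lower. Leaving out a sample gave 0 to 3 such members, 0 without Pink1 siRNA replicate 3 and 3 without Nrf2-Pink1 siRNA replicate 1, and 5 passed with only the groups compared in the fit. With only those groups the count over all tested genes rose as well, from 1687 to 2546. It was 1092 without Pink1 siRNA replicate 3 and 2203 without Nrf2-Pink1 siRNA replicate 1. The log2 difference was above 0 for 20 of the 34 (52.7% of tested genes), with a median of 0.04. With ENSG00000226958 removed, 14 of the 34 were above 0 and the median was -0.03, where the median over all tested genes was -0.04. The 3 Pink1 siRNA samples lay above the 3 scramble samples for 5 members (AURKB, CENPF, PRC1, KIF20A and MKI67; 13.8% of tested genes) and below them for 2 (CDK1 and CENPE; 11.2%).

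With Nrf2-Pink1 siRNA, 0 of 34 were called (0.753% of tested genes were), and the lowest adjusted p was 0.263 in limma. At an unadjusted p under 0.05, 5 members were lower (MAD2L1, ANLN, CENPE, KIF11 and RACGAP1) and 1 higher (KIF20A), where 6.48% of tested genes were lower and 7.76% higher. Those 6 became 15 with ENSG00000226958 removed, 10 with median-of-ratios rescaling, 1 with only the groups compared in the fit and 2 to 12 leaving out a sample, with 2 without Nrf2-Pink1 siRNA replicate 1 or any scramble replicate and 12 without Nrf2-Pink1 siRNA replicate 3. The count over all tested genes went from 1966 to 2534 with the identifier removed, 2462 with the rescaling and 1587 with only the groups compared. It was 2470 without Nrf2-Pink1 siRNA replicate 1 and 2069 without replicate 3. The log2 difference was below 0 for 27 of the 34 (48.5% of tested genes), with a median of -0.18. That median was -0.28 with ENSG00000226958 removed, 0.03 without replicate 1 and -0.38 without replicate 3. Over all tested genes the median was -0.08 with that identifier removed, 0.10 without replicate 1 and -0.05 without replicate 3. The 3 samples lay below the 3 scramble samples for 6 members (CDK1, CENPA, CENPE, MAD2L1, KIF11 and ANLN; 7.82% of tested genes), and above them for 0 (10.2%).

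The Nrf2-Pink1 siRNA samples differed among themselves more than those of any other group. Over the members, the median SD between biological samples on the log2 scale was 0.43 with Nrf2-Pink1 siRNA, 0.14 with Pink1 siRNA, 0.17 with Nrf2 siRNA and 0.11 with scramble. The median SD between technical replicates was 0.14. Replicate 1 was the lowest of its group for 32 of the 34 members, all but CDC20 and CENPA, and for 61.1% of all tested genes. Replicate 3 was the highest for 24 members, and for 52.4% of tested genes. Summed over the members, the 3 samples had 975, 1328 and 1689 TPM.

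The share of ENSG00000226958 ran in the opposite order to these sums, at 41.4%, 29.4% and 15.5% of TPM in Nrf2-Pink1 siRNA replicates 1, 2 and 3. The median member lay -0.61, -0.12 and 0.13 from the scramble mean in the 3 samples as deposited. With the identifier removed and the rest rescaled, these medians became -0.46, -0.23 and -0.22. On that scale the 3 Nrf2 siRNA samples were at -0.33, -0.22 and -0.16, and the Pink1 siRNA samples at 0.004, 0.06 and -0.19. All 3 Nrf2 siRNA and all 3 Nrf2-Pink1 siRNA samples had a median below those of the 3 scramble samples on that scale, and so did Pink1 siRNA replicate 3. As deposited, all the Nrf2 siRNA and Nrf2-Pink1 siRNA samples but Nrf2-Pink1 siRNA replicate 3 did. With median-of-ratios rescaling that replicate was at -0.047, above scramble replicate 1 at -0.053. Over all tested genes, the median difference of Nrf2-Pink1 siRNA from scramble was -0.08 with the identifier removed. With the identifier removed, 14 members (14.7% of tested genes) had all 3 Nrf2-Pink1 siRNA samples below all 3 scramble samples, and 15 members (11.1%) had all 3 Nrf2 siRNA samples below them.

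**Figure D2:**
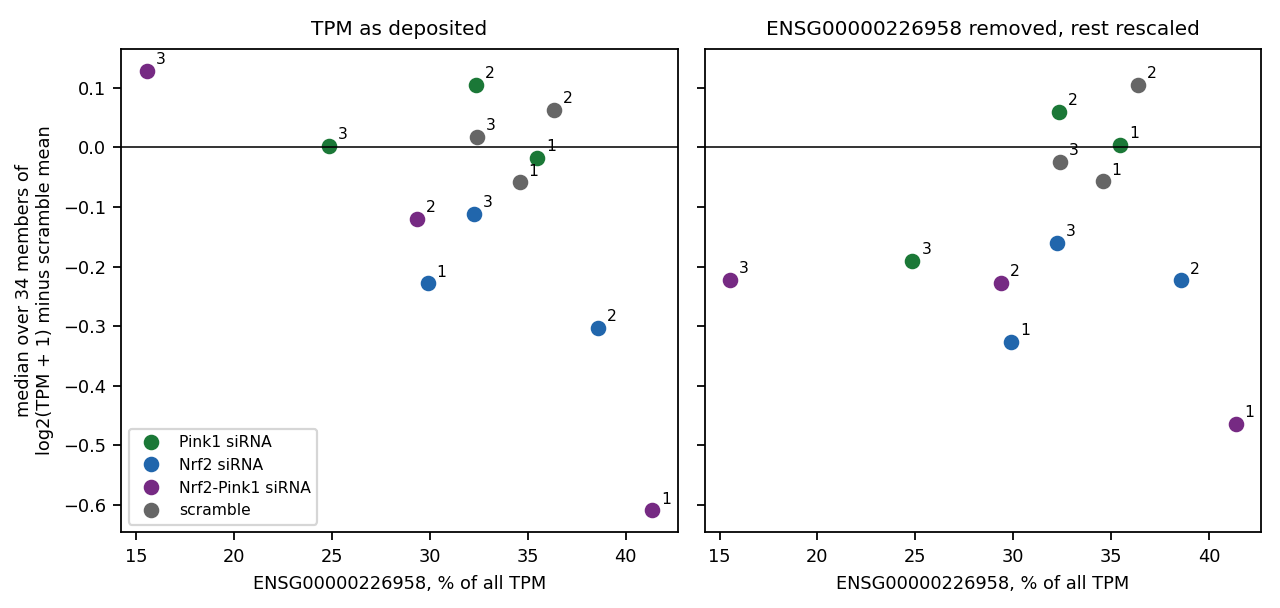
Each point is a biological sample, numbered by replicate; the x axis is the share of all TPM held by ENSG00000226958 and the y axis the median over the 34 members of log2(TPM + 1) minus the scramble mean, as deposited (left) and with that identifier removed (right). Nrf2-Pink1 siRNA replicates 1 and 3 sit at the ends of the x axis, 41.4% and 15.5%, and replicate 3 moves from 0.13 to -0.22 between the panels.

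The 6 genes of mitotic entry and exit had a median log2 difference of -0.002 with Pink1 siRNA, -0.33 with Nrf2 siRNA, where all 6 were below 0, and -0.21 with Nrf2-Pink1 siRNA. CDK1 (ENSG00000170312), the kinase that cyclin B activates, had 47.5, 61.0 and 54.4 TPM in the Pink1 siRNA samples, 47.5, 38.3 and 38.1 TPM in the Nrf2 siRNA samples and 32.3, 55.4 and 61.0 TPM in the Nrf2-Pink1 siRNA samples, against 61.4, 69.5 and 64.1 TPM in the scramble samples. All 9 siRNA samples were below all 3 scramble samples, and the lowest was Nrf2-Pink1 siRNA replicate 1. CDK1 was the only member with that pattern, which 1.88% of all tested genes showed.

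CDK1 stood at 83.6% of the scramble mean with Pink1 siRNA, 63.5% with Nrf2 siRNA and 76.3% with Nrf2-Pink1 siRNA. The log2 difference with Nrf2 siRNA was -0.65 (SE 0.21, 95% interval -1.10 to -0.20, adjusted p = 0.216), which did not pass the threshold. With Pink1 siRNA it was -0.26 (adjusted p = 0.652) and with Nrf2-Pink1 siRNA -0.43 (adjusted p = 0.374).

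CCNB1 (ENSG00000134057), cyclin B1 and the most abundant member, had 174, 162 and 183 TPM in the Pink1 siRNA samples, 154, 123 and 158 TPM in the Nrf2 siRNA samples and 109.7, 150.0 and 241 TPM in the Nrf2-Pink1 siRNA samples, against 178, 192 and 183 TPM in the scramble samples. The 3 Nrf2 siRNA samples were below the 3 scramble samples, whereas the Nrf2-Pink1 siRNA samples held both the lowest and the highest value of all 12. Its log2 difference was -0.09 (adjusted p = 0.908) with Pink1 siRNA, -0.35 (adjusted p = 0.582) with Nrf2 siRNA and -0.22 (adjusted p = 0.718) with Nrf2-Pink1 siRNA. The others of the group, cyclins A2 and B2 (CCNA2, CCNB2) and CDC20 and UBE2C, which activate and serve the anaphase-promoting complex, stood at between 77.2% (UBE2C) and 88.2% (CCNA2) of scramble with Nrf2 siRNA, each with its 3 samples below the 3 scramble samples.

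The 5 mitotic kinases had medians of 0.06 with Pink1 siRNA, -0.19 with Nrf2 siRNA, where all 5 were below 0, and -0.17 with Nrf2-Pink1 siRNA. AURKA (ENSG00000087586), Aurora A, which matures the spindle poles, had 32.5, 36.2 and 35.7 TPM in the Pink1 siRNA samples, 24.9, 22.4 and 24.0 TPM in the Nrf2 siRNA samples and 21.3, 30.6 and 39.8 TPM in the Nrf2-Pink1 siRNA samples, against 28.8, 38.7 and 34.8 TPM in the scramble samples. The 3 Nrf2 siRNA samples were tightly grouped and below all scramble and all Pink1 siRNA samples, while the Nrf2-Pink1 siRNA samples spanned the range of the rest. The log2 difference was -0.50 with Nrf2 siRNA (SE 0.20, 95% interval -0.92 to -0.07, adjusted p = 0.316), 0.04 (adjusted p = 0.965) with Pink1 siRNA and -0.19 (adjusted p = 0.722) with Nrf2-Pink1 siRNA.

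PLK1, Polo-like kinase, which drives centrosome maturation and mitotic progression, had 50.9, 50.3 and 59.9 TPM in the Pink1 siRNA samples, 36.2, 41.7 and 40.9 TPM in the Nrf2 siRNA samples and 42.8, 46.5 and 57.2 TPM in the Nrf2-Pink1 siRNA samples, against 47.8, 54.0 and 48.3 TPM in the scramble samples. Again only the Nrf2 siRNA samples of the 3 siRNA groups lay wholly below scramble. Its log2 difference with Nrf2 siRNA was -0.33 (adjusted p = 0.375), with Pink1 siRNA 0.10 (adjusted p = 0.831) and with Nrf2-Pink1 siRNA -0.04 (adjusted p = 0.931). BUB1B, the checkpoint protein BUBR1, had 10.5, 13.3 and 8.51 TPM in the Pink1 siRNA samples, 14.7, 7.68 and 9.79 TPM in the Nrf2 siRNA samples and 7.85, 9.11 and 12.4 TPM in the Nrf2-Pink1 siRNA samples, against 11.8, 11.0 and 13.3 TPM in the scramble samples. The 4 groups overlapped, and its log2 differences were between -0.29 and -0.16, with adjusted p of at least 0.618. TTK and BUB1, the kinases that start checkpoint signalling at kinetochores, were at between 90.8% and 108% of scramble in the 3 siRNA groups.

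The chromosomal passenger complex corrects faulty attachments and guides cytokinesis, and its 4 genes had medians of 0.18 with Pink1 siRNA, -0.16 with Nrf2 siRNA, where 3 of 4 were below 0, and -0.08 with Nrf2-Pink1 siRNA. AURKB (ENSG00000178999), its Aurora B kinase, had 36.6, 37.5 and 44.1 TPM in the Pink1 siRNA samples, 30.9, 44.6 and 31.6 TPM in the Nrf2 siRNA samples and 27.9, 29.5 and 43.5 TPM in the Nrf2-Pink1 siRNA samples, against 25.4, 25.7 and 28.7 TPM in the scramble samples. The Pink1 siRNA and the Nrf2 siRNA samples all lay above all scramble samples, and of the Nrf2-Pink1 siRNA samples replicate 1 lay within the scramble range. AURKB stood at 148% of scramble with Pink1 siRNA, 134% with Nrf2 siRNA and 127% with Nrf2-Pink1 siRNA.

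The log2 difference of AURKB with Pink1 siRNA was 0.55 (SE 0.19, 95% interval 0.14 to 0.96, adjusted p = 0.254), the lowest adjusted p of a member in that comparison. With Nrf2 siRNA it was 0.39 (adjusted p = 0.436) and with Nrf2-Pink1 siRNA 0.30 (adjusted p = 0.501). BIRC5, the survivin subunit that carries the complex to centromeres, had 32.3, 45.8 and 40.0 TPM in the Pink1 siRNA samples, 29.0, 35.2 and 35.4 TPM in the Nrf2 siRNA samples and 28.4, 35.9 and 43.5 TPM in the Nrf2-Pink1 siRNA samples, against 32.7, 42.7 and 40.0 TPM in the scramble samples. Its groups overlapped, and the log2 differences were between -0.20 and 0.03. CDCA8 (borealin) and INCENP, the scaffold, were at 91.6% and 79.6% of scramble with Nrf2 siRNA, and INCENP was the least precise member, with 6.88, 2.36 and 5.76 TPM in the 3 scramble samples.

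**Figure D3:**
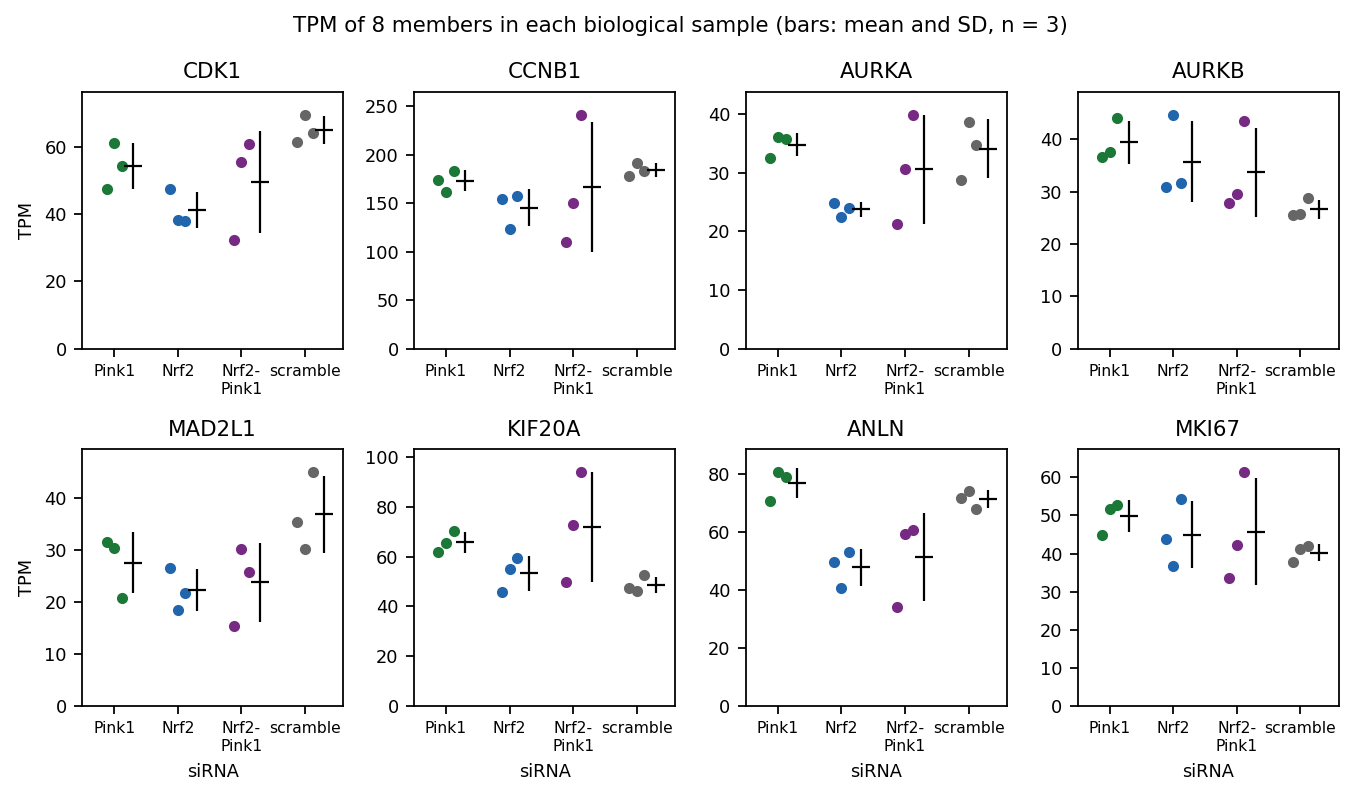
Points are TPM of 8 members in the 3 biological samples of each group (replicates 1 to 3 from left to right), and the bars beside them the mean and SD. CDK1 is lower in all 9 siRNA samples than in scramble, AURKA is lowest and tight with Nrf2 siRNA (22.4 to 24.9 TPM), and AURKB with Pink1 siRNA (36.6 to 44.1 TPM) lies above scramble (25.4 to 28.7 TPM).

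The 6 centromere, kinetochore and checkpoint genes had the lowest medians of the role groups with Nrf2 siRNA, -0.35, where all 6 were below 0, and with Nrf2-Pink1 siRNA, -0.32, and a median of -0.13 with Pink1 siRNA. MAD2L1 (ENSG00000164109), which holds back anaphase until chromosomes are attached, had 31.4, 30.3 and 20.8 TPM in the Pink1 siRNA samples, 26.5, 18.4 and 21.6 TPM in the Nrf2 siRNA samples and 15.3, 30.2 and 25.7 TPM in the Nrf2-Pink1 siRNA samples, against 35.3, 30.2 and 44.9 TPM in the scramble samples. The Nrf2 siRNA samples and the Nrf2-Pink1 siRNA samples were below every scramble sample, although the highest Nrf2-Pink1 siRNA sample (30.155 TPM) all but met the lowest scramble sample (30.195 TPM), and the Pink1 siRNA samples overlapped scramble. The log2 difference was -0.70 with Nrf2 siRNA (SE 0.25, 95% interval -1.24 to -0.16, adjusted p = 0.263) and -0.64 with Nrf2-Pink1 siRNA (95% interval -1.18 to -0.11, adjusted p = 0.264), and -0.41 (adjusted p = 0.531) with Pink1 siRNA.

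CENPF, a large kinetochore protein that peaks in G2 and mitosis, had 47.5, 43.7 and 39.2 TPM in the Pink1 siRNA samples, 30.1, 34.7 and 33.6 TPM in the Nrf2 siRNA samples and 29.0, 44.7 and 53.5 TPM in the Nrf2-Pink1 siRNA samples, against 32.4, 36.9 and 34.5 TPM in the scramble samples. The Pink1 siRNA samples lay above the scramble samples, the Nrf2 siRNA samples overlapped them and the Nrf2-Pink1 siRNA samples straddled them. Its log2 difference was 0.32 (adjusted p = 0.529) with Pink1 siRNA, -0.08 (adjusted p = 0.922) with Nrf2 siRNA and 0.24 (adjusted p = 0.613) with Nrf2-Pink1 siRNA. CENPA, the histone variant of centromeres, stood at 63.6% of scramble with Nrf2 siRNA, with a log2 difference of -0.65 (adjusted p = 0.270). CENPE, a kinetochore kinesin, was at 70.5% of scramble with Nrf2-Pink1 siRNA (log2 difference -0.48, adjusted p = 0.301), and NDC80 and NUF2, which bind the microtubule end, at 78.1% and 80.0% with Nrf2 siRNA.

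The 5 spindle motors and microtubule-binding proteins had medians of 0.04 with Pink1 siRNA, -0.12 with Nrf2 siRNA, where all 5 were below 0, and -0.13 with Nrf2-Pink1 siRNA. KIF11, the kinesin that pushes spindle poles apart, had 16.2, 14.3 and 10.3 TPM in the Pink1 siRNA samples, 11.1, 11.5 and 12 TPM in the Nrf2 siRNA samples and 7.83, 12 and 12 TPM in the Nrf2-Pink1 siRNA samples, against 14.2, 13.5 and 15.8 TPM in the scramble samples. Both the Nrf2 siRNA and the Nrf2-Pink1 siRNA samples lay below all scramble samples, and its log2 difference was -0.30 (adjusted p = 0.565) and -0.44 (adjusted p = 0.314) in them, and -0.11 (adjusted p = 0.865) with Pink1 siRNA. TPX2, which activates Aurora A and nucleates microtubules, was the most abundant of the group.

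TPX2 had 56.6, 67.2 and 60.8 TPM in the Pink1 siRNA samples, 47.3, 50.8 and 57.7 TPM in the Nrf2 siRNA samples and 40.3, 48.8 and 62.7 TPM in the Nrf2-Pink1 siRNA samples, against 47.0, 58.0 and 59.3 TPM in the scramble samples. The groups overlapped, with log2 differences of 0.17, -0.07 and -0.13 for Pink1, Nrf2 and Nrf2-Pink1 siRNA. KIF2C, a kinesin that takes microtubules apart at the centromere, had 29.7, 34.9 and 32.1 TPM in the Pink1 siRNA samples, 20.4, 30.7 and 26.3 TPM in the Nrf2 siRNA samples and 22.4, 34.3 and 31.4 TPM in the Nrf2-Pink1 siRNA samples, against 23.3, 25.6 and 29.8 TPM in the scramble samples. Its groups overlapped as well, although 2 of the 3 Pink1 siRNA samples were above the highest scramble sample, and its log2 difference with Pink1 siRNA was 0.29 (adjusted p = 0.560). NUSAP1 and DLGAP5, which bundle spindle microtubules, were at between 81.5% and 104% of scramble in the 3 siRNA groups.

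The 6 genes of the central spindle and cytokinesis had medians of 0.02 with Pink1 siRNA, -0.25 with Nrf2 siRNA, where 5 of 6 were below 0, and -0.31 with Nrf2-Pink1 siRNA. ANLN (ENSG00000011426), anillin, had 70.8, 80.5 and 78.9 TPM in the Pink1 siRNA samples, 49.8, 40.5 and 52.9 TPM in the Nrf2 siRNA samples and 34, 59.4 and 60.8 TPM in the Nrf2-Pink1 siRNA samples, against 71.8, 74.0 and 67.8 TPM in the scramble samples. All Nrf2 siRNA and all Nrf2-Pink1 siRNA samples lay below all scramble and all Pink1 siRNA samples. It stood at 108% of scramble with Pink1 siRNA, 67.0% with Nrf2 siRNA and 72.1% with Nrf2-Pink1 siRNA.

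The log2 difference of ANLN was -0.58 with Nrf2 siRNA (SE 0.20, 95% interval -1.01 to -0.14, adjusted p = 0.252), -0.51 with Nrf2-Pink1 siRNA (95% interval -0.94 to -0.08, adjusted p = 0.270) and 0.11 (adjusted p = 0.876) with Pink1 siRNA. With ENSG00000226958 removed, the difference with Nrf2-Pink1 siRNA was -0.62 and passed the threshold (adjusted p = 0.0383 in limma).

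KIF20A (ENSG00000112984), the kinesin MKLP2, which carries the passenger complex to the central spindle, had 61.8, 65.5 and 70.2 TPM in the Pink1 siRNA samples, 45.8, 54.9 and 59.5 TPM in the Nrf2 siRNA samples and 49.7, 72.7 and 94.0 TPM in the Nrf2-Pink1 siRNA samples, against 47.2, 46.1 and 52.5 TPM in the scramble samples. All Pink1 siRNA samples lay above all scramble samples, the Nrf2 siRNA samples overlapped scramble, and of the Nrf2-Pink1 siRNA samples 2 lay well above scramble and replicate 1 within it. The log2 difference was 0.52 with Nrf2-Pink1 siRNA (SE 0.20, 95% interval 0.09 to 0.94, adjusted p = 0.263), 0.43 (adjusted p = 0.406) with Pink1 siRNA and 0.13 (adjusted p = 0.857) with Nrf2 siRNA. Without Nrf2-Pink1 siRNA replicate 1 the first of these was 0.76 and passed the threshold (adjusted p = 0.0344 in limma).

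PRC1, which crosslinks the antiparallel microtubules of the central spindle, had 123, 138 and 168 TPM in the Pink1 siRNA samples, 105, 94.2 and 117 TPM in the Nrf2 siRNA samples and 90.6, 107 and 184 TPM in the Nrf2-Pink1 siRNA samples, against 122, 117 and 120.2 TPM in the scramble samples. The Pink1 siRNA samples were above and the Nrf2 siRNA samples below the narrow scramble range, and Nrf2-Pink1 siRNA replicate 3 was the highest of the 12. Its log2 difference was 0.24 (adjusted p = 0.695) with Pink1 siRNA, -0.19 (adjusted p = 0.798) with Nrf2 siRNA and 0.02 (adjusted p = 0.986) with Nrf2-Pink1 siRNA. ECT2, which activates RhoA at the division plane, stood at 69.5% of scramble with Nrf2 siRNA, and its partner RACGAP1 at 73.8% with Nrf2-Pink1 siRNA (log2 difference -0.41, adjusted p = 0.314). KIF23, which forms the centralspindlin complex with RACGAP1, was between 88.9% and 95.8% of scramble.

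MKI67 and TOP2A, both in use as marks of proliferating cells, were on opposite sides of 0 in all 3 comparisons against scramble. MKI67, which coats mitotic chromosomes, had 45.0, 51.6 and 52.7 TPM in the Pink1 siRNA samples, 43.8, 36.8 and 54.3 TPM in the Nrf2 siRNA samples and 33.7, 42.3 and 61.3 TPM in the Nrf2-Pink1 siRNA samples, against 37.7, 41.2 and 41.9 TPM in the scramble samples. The Pink1 siRNA samples were above the scramble samples and the other siRNA groups straddled them, with log2 differences of 0.30 (adjusted p = 0.589), 0.14 (adjusted p = 0.844) and 0.14 (adjusted p = 0.813) for Pink1, Nrf2 and Nrf2-Pink1 siRNA. TOP2A, the topoisomerase that untangles sister chromatids, had 73.7, 81.0 and 50.8 TPM in the Pink1 siRNA samples, 65.1, 58.3 and 69.7 TPM in the Nrf2 siRNA samples and 39.3, 62.4 and 75.1 TPM in the Nrf2-Pink1 siRNA samples, against 75.8, 82.0 and 69.4 TPM in the scramble samples. All groups overlapped, and the log2 differences were -0.17 (adjusted p = 0.808), -0.23 (adjusted p = 0.747) and -0.40 (adjusted p = 0.457) in the same order.

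**Figure D4:**
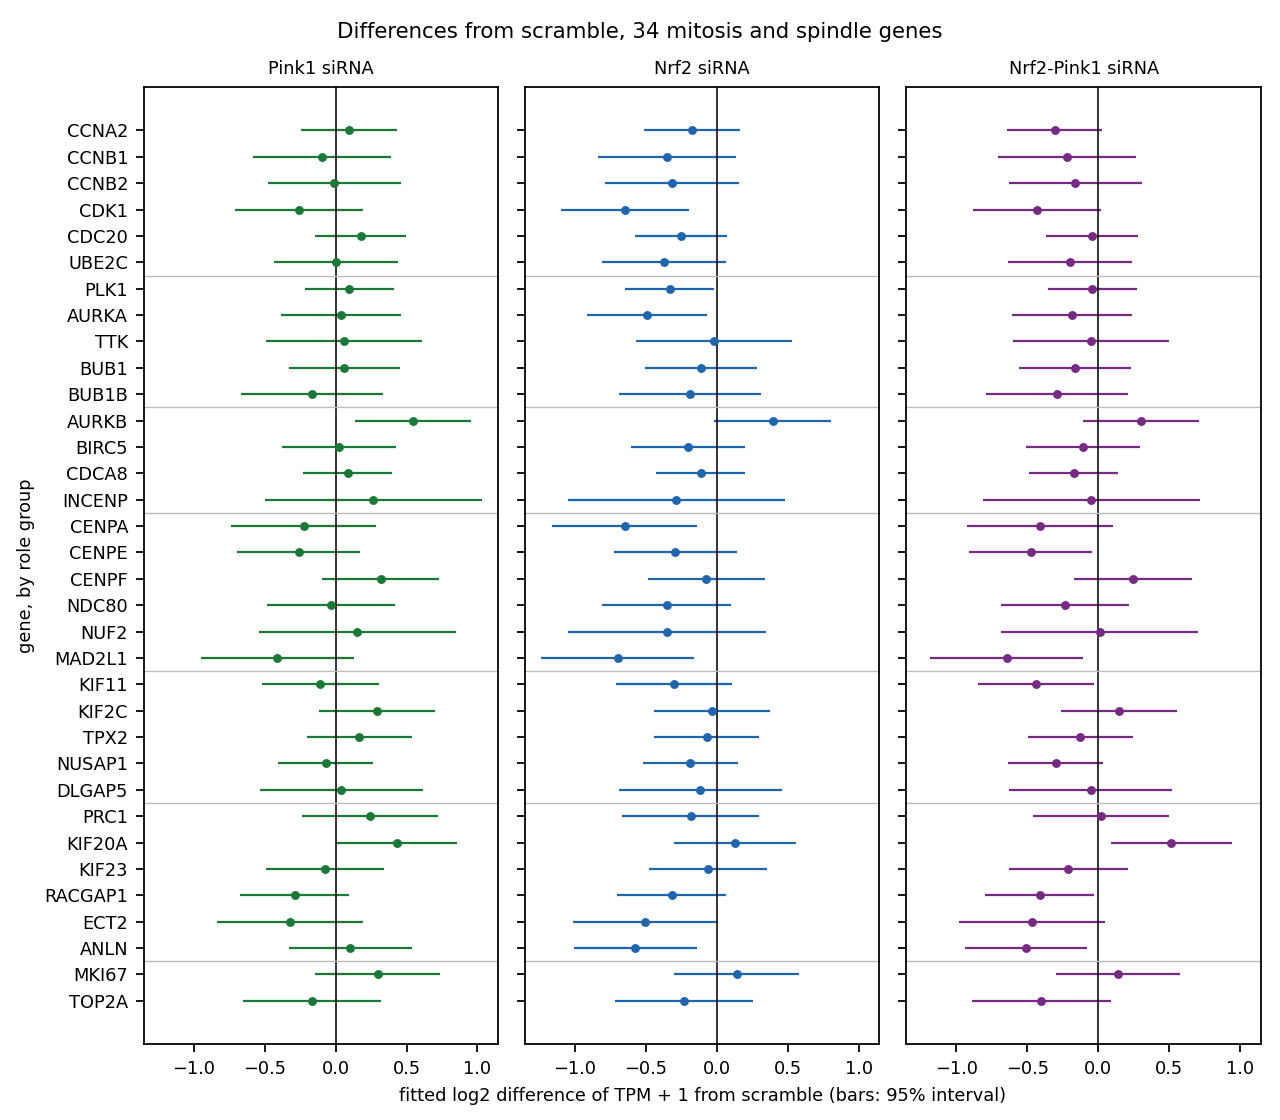
Points are the fitted log2 differences of TPM + 1 from scramble for the 34 members (by role, top to bottom) and bars the 95% intervals, with a panel each for siRNA against Pink1, Nrf2 and both. With Nrf2 siRNA 31 of 34 points lie left of 0, with AURKB, KIF20A and MKI67 on the right, and 6 intervals, all on the left, do not reach 0.

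The intervals say how large a difference the fit to all 12 samples leaves room for. They rest on a variance per gene pooled over the 4 groups, with a median pooled SD of 0.26 over the members. The median SD was 0.43 with Nrf2-Pink1 siRNA alone and 0.11 with scramble alone. Intervals with Nrf2-Pink1 siRNA may therefore be too narrow, and those between the other groups too wide. The 95% interval lay within a 2-fold change in either direction for 33 of the 34 members with Pink1 siRNA (79.7% of tested genes), the exception being INCENP, and for 33 with Nrf2-Pink1 siRNA (78.5%), the exception being MAD2L1. With Nrf2 siRNA it did so for 27 (79.5%). The others were MAD2L1, CENPA, CDK1, ECT2, ANLN, NUF2 and INCENP, each with a lower bound beyond that fold. An adjusted p above the threshold does not show that a level was the same.

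Between the siRNA groups, Pink1 siRNA set against Nrf2 siRNA gave 0 called members (0.992% of tested genes were called), with a lowest adjusted p of 0.156. At an unadjusted p under 0.05 in limma, 4 members were higher with Pink1 siRNA (ANLN, PLK1, CDC20 and AURKA; 5.3% of tested genes were higher) and 0 lower (5.92%). Those 4 became 9 with median-of-ratios rescaling, 7 with ENSG00000226958 removed and 11 without Nrf2-Pink1 siRNA replicate 1. The count over all tested genes, in either direction, went from 1550 to 1939 with the rescaling and 1889 with the identifier removed. Without Nrf2-Pink1 siRNA replicate 1 it was 1966. The difference was above 0 for 33 of the 34 (50.7% of tested genes), with a median of 0.27, and 13 members had all 3 Pink1 siRNA samples above all 3 Nrf2 siRNA samples (9.41% of tested genes) and 0 had them below (9.41%). ANLN differed by 0.68 (SE 0.20, 95% interval 0.25 to 1.11, adjusted p = 0.156). Its adjusted p passed the threshold in 3 other settings: 0.0267 with median-of-ratios rescaling, 0.0336 with ENSG00000226958 removed and 0.0194 without Nrf2-Pink1 siRNA replicate 1.

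Nrf2-Pink1 siRNA set against Pink1 siRNA gave 0 called members (0.0434% of tested genes were called), a lowest adjusted p of 0.564 and, at an unadjusted p under 0.05 in limma, 2 lower members (ANLN and CCNA2; 3.36% of tested genes) and 0 higher (2.44%). The difference was below 0 for 33 of the 34 (51.6% of tested genes), with a median of -0.19, which was 0.005 without Nrf2-Pink1 siRNA replicate 1 and -0.35 without replicate 3, where 12 members had an unadjusted p under 0.05. These medians over all tested genes were -0.009, 0.09 and -0.08. The number of all tested genes at that p was 801, and 818 without replicate 3. The 3 Nrf2-Pink1 siRNA samples lay below the 3 Pink1 siRNA samples for 3 members, CCNA2, INCENP and ANLN (5.67% of tested genes), and above them for 0 (3.18%). Set against Nrf2 siRNA, 0 were called (0.0145% of tested genes were), 0 had an unadjusted p under 0.05 (2.61% of tested genes higher and 4.34% lower), and the lowest adjusted p was 0.732. There 21 of 34 were above 0 (48.5% of tested genes), with a median of 0.06. With ENSG00000226958 removed, 16 were above 0 and the median was -0.02, where the median over all tested genes was -0.08. Without Nrf2-Pink1 siRNA replicate 1, 33 were above 0, the median was 0.25 and 9 had an unadjusted p under 0.05, whereas without replicate 3, 12 were above 0 and the median was -0.07. Over all tested genes the median was 0.09 without replicate 1 and -0.07 without replicate 3. The number of all tested genes at that p went from 960 to 1900 without replicate 1. PLK1 had its 3 Nrf2-Pink1 siRNA samples above its 3 Nrf2 siRNA samples and was the only member to do so (3.83% of tested genes), and 0 had them below (5.66%). These comparisons share their samples with those against scramble.

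The interaction asks whether the combined siRNA differed from the sum of the single ones on the log2 scale. Both targets were on average less reduced in the combined group, with overlapping ranges. PINK1 was at 33.5% of scramble there and 26.2% with Pink1 siRNA, and NFE2L2 at 35.8% there and 24.8% with Nrf2 siRNA. The interaction takes no account of this, and its part was not tested. No member was called (0% of tested genes were), and 1, AURKB, had an unadjusted p under 0.05 in limma (5.45% of tested genes). Its interaction was -0.64 (SE 0.27, 95% interval -1.22 to -0.06, adjusted p = 0.891), its level being above scramble in each single siRNA group and no higher in the combined one. For CDK1 the interaction was 0.48 (95% interval -0.16 to 1.11) and for MAD2L1 0.47 (95% interval -0.30 to 1.23), and both intervals include 0. Interactions were above 0 for 18 members (46% of tested genes), 22 with median-of-ratios rescaling, 29 without Nrf2-Pink1 siRNA replicate 1 and 8 without replicate 3. The median interaction of the members was 0.01, against -0.03 over all tested genes. Without Nrf2-Pink1 siRNA replicate 1 it was 0.23, against 0.07 over all tested genes. Without replicate 3 it was -0.10, and -0.10 over all tested genes.

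Genes around the list were read from 5 further lists, in which 128 of 131 genes were tested and 0 called in any comparison. Of 63 other mitosis genes (led in level by STMN1, which destabilises microtubules, and HMGB2, a chromatin protein), 38 had a log2 difference below 0 with Pink1 siRNA (46.7% of all tested genes), 54 with Nrf2 siRNA (47.5%) and 53 with Nrf2-Pink1 siRNA (48.5%), with medians of -0.04, -0.25 and -0.23. At an unadjusted p under 0.05 in limma, 2 were lower and 3 higher with Pink1 siRNA (4.57% and 7.65% of all tested genes), 9 lower and 0 higher with Nrf2 siRNA (4.23% and 7.99%), and 12 lower and 0 higher with Nrf2-Pink1 siRNA (6.48% and 7.76%). CKS2, a CDK-binding subunit named after its values were seen, had the lowest difference of that list, -0.73 (adjusted p = 0.161) with Nrf2 siRNA and -0.95 (adjusted p = 0.0573) with Nrf2-Pink1 siRNA.

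Among 18 regulators of the program, the medians were 0.15 with Pink1 siRNA, -0.13 with Nrf2 siRNA and -0.07 with Nrf2-Pink1 siRNA. At an unadjusted p under 0.05 in limma, 3 were higher and 0 lower with Pink1 siRNA (7.65% and 4.57% of all tested genes). With Nrf2 siRNA 2 were higher and 1 lower (7.99% and 4.23%), and with Nrf2-Pink1 siRNA 0 higher and 1 lower (7.76% and 6.48%). MYBL2, B-MYB, which joins MuvB to activate mitotic genes, averaged 50.8 ± 7.82 TPM with Pink1 siRNA, 33.9 ± 1.70 TPM with Nrf2 siRNA, 41.6 ± 2.49 TPM with Nrf2-Pink1 siRNA and 38.2 ± 0.532 TPM with scramble. FOXM1, the forkhead activator of these genes, averaged 37.6 ± 3.53, 39.8 ± 9.42, 32.5 ± 6.10 and 34.6 ± 1.35 TPM in the same order of groups. RB1, the retinoblastoma repressor, named after its values were seen, averaged 16.0 ± 3.08 TPM with Pink1 siRNA, 9.95 ± 1.47 TPM with Nrf2 siRNA, 11.0 ± 2.45 TPM with Nrf2-Pink1 siRNA and 20.3 ± 2.59 TPM with scramble. Its log2 difference was -0.96 (adjusted p = 0.0602) with Nrf2 siRNA and -0.84 (adjusted p = 0.0707) with Nrf2-Pink1 siRNA, the lowest of the list in both. E2F4, also named after its values were seen, had the highest, 0.56 with Pink1 siRNA, 0.55 with Nrf2 siRNA and 0.28 with Nrf2-Pink1 siRNA. It averaged 24.3 ± 4.34, 24.2 ± 4.89 and 19.8 ± 4.05 TPM in these groups, against 16.0 ± 1.26 TPM with scramble.

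The other stages of the cell cycle were read in the same way. The 17 tested S phase genes had medians of 0.19 with Pink1 siRNA, -0.16 with Nrf2 siRNA and 0.05 with Nrf2-Pink1 siRNA, and 15, 3 and 11 of them were above 0, against 52.7%, 52% and 50.8% of all tested genes. TYMS, thymidylate synthase, averaged 206 ± 13.7, 165 ± 7.38 and 196 ± 79.2 TPM with Pink1, Nrf2 and Nrf2-Pink1 siRNA and 174 ± 11.0 TPM with scramble, and PCNA, the replication clamp, 190.3 ± 21.5, 169 ± 4.39 and 185 ± 60.9 TPM, and 186 ± 15.6 TPM with scramble. The 13 tested genes of G1 and of CDK inhibition had medians of 0.28, 0.06 and 0.19 in the same order. Of these, 2 were higher and 1 lower with Pink1 siRNA at an unadjusted p under 0.05 in limma (7.65% and 4.57% of all tested genes). The counts were 2 and 0 with Nrf2 siRNA (7.99% and 4.23%), and 5 and 1 with Nrf2-Pink1 siRNA (7.76% and 6.48%). CDKN1A, the CDK inhibitor p21, averaged 267 ± 26.1, 258 ± 26.8 and 268 ± 7.88 TPM in the 3 siRNA groups and 219 ± 8.70 TPM with scramble, with adjusted p of 0.410, 0.531 and 0.340. CCND1, cyclin D1, averaged 261 ± 14.3, 243 ± 27.6 and 237 ± 8.49 TPM, and 195 ± 8.34 TPM with scramble. CDKN1B, another CDK inhibitor, named after its values were seen, had the lowest difference of the list in all 3 comparisons: -0.52, -0.48 and -0.63. It averaged 11.7 ± 0.117, 12.4 ± 3.58 and 11.0 ± 3.06 TPM, and 17.2 ± 0.874 TPM with scramble. The 17 genes of the anaphase-promoting complex and its partners (its subunits, the activator FZR1, the E2 enzyme UBE2S and the inhibitor FBXO5), led by ANAPC5 and ANAPC15, had medians of -0.06, -0.10 and -0.03.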

How the data were processed

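RNA-seq libraries were made from ARPE-19 cells with a stranded mRNA kit and sequenced in pairs, per the labels' protocols. The authors deposited 1 table of TPM for 24053 genes in 24 samples. The submitters' processing notes name STAR, RSEM, edgeR and the builds GRCh37 and hg19; which step made which value is not given in the sources used here. Technical replicates were averaged, giving 12 biological samples in 4 groups of 3. Ensembl identifiers were matched to symbols, and 22789 were found in the name table.

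Differences were tested with limma 3.58.1 in R 4.3.3 on log2(TPM + 1), with a mean-dependent prior, over the 13810 genes whose mean reached 1 TPM, in a fit to all 12 samples, two-sided. P-values were adjusted over all tested genes (Benjamini-Hochberg) and called under 0.05. The fit was checked on simulated data. Values in every sample are given for the most abundant member of each role group and for the one with the largest difference in each comparison against scramble. Of the 5 lists of related genes, the 2 most abundant are named. The members and lists were chosen with earlier results of these data known. Alternatives were the pseudocount (0.1, 5), the filter (none, 5 TPM), median-of-ratios rescaling, removal of ENSG00000226958, fits to only the groups compared, a block for replicate number, either technical replicate alone, and leaving out each sample. TPM keep no read depth, so no counting interval is given.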

Additional observations from a re-analysis of the deposited data

How the results depend on the processing

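The fit that treats the replicate number as a block called 0 members in each of the 7 comparisons, and its median with Nrf2 siRNA against scramble stayed at -0.24. Samples with the same number did not deviate together (r across genes between -0.085 and 0.113 over 18 pairs, against -0.13 to 0.17 for other pairs), so the numbers were not taken to pair the samples.

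Of 306 values over the alternatives of these comparisons, 298 kept their direction and side of the threshold or stayed within the spread, and 8 moved. None reversed past a threshold. The spread allowed for a median was the SD between replicates, 0.26 to 0.27 in the comparisons with Nrf2-Pink1 siRNA. That is larger than their medians, so a median there could change sign and still count as kept. A number of called members that stayed at 0 also counted as kept, so the tally says little about stability. The number of members called with Nrf2-Pink1 siRNA against scramble became 1 with ENSG00000226958 removed, and leaving out each sample in turn it was 0 to 1. With Pink1 siRNA against Nrf2 siRNA it became 1 with median-of-ratios rescaling and 1 with ENSG00000226958 removed, and it was 0 to 1 leaving out each sample. The median with Pink1 siRNA against scramble was -0.032 with ENSG00000226958 removed (-0.039 over all tested genes) and -0.036 to 0.088 leaving out each sample, the lowest without scramble replicate 1. The median interaction was -0.10 to 0.23 leaving out each sample, the highest without Nrf2-Pink1 siRNA replicate 1. In the same way the median was -0.28 to -0.18 with Nrf2 siRNA against scramble, -0.38 to 0.03 with Nrf2-Pink1 siRNA against scramble, -0.35 to 0.005 with Nrf2-Pink1 siRNA against Pink1 siRNA, -0.07 to 0.25 against Nrf2 siRNA, and 0.19 to 0.31 with Pink1 siRNA against Nrf2 siRNA. The cause was not tested.

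Calls over all tested genes varied more: 65 with Pink1 siRNA against scramble (18 to 177 over the alternatives), 46 with Nrf2 siRNA (6 to 148) and 104 with Nrf2-Pink1 siRNA (6 to 333). The precision is limited by 3 biological samples a group and by the spread of the Nrf2-Pink1 siRNA samples, and the read depth is unknown.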

Other observations

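Ratios of members within a sample do not depend on how TPM are scaled, and 6 were computed. All were chosen after the values were seen, several of them from members that stood high and low, so that a separation between groups was built into the choice and none was tested. KIF20A over CDK1 was 1.30, 1.07 and 1.29 in the Pink1 siRNA samples, 0.964, 1.43 and 1.56 in the Nrf2 siRNA samples and 1.54, 1.31 and 1.54 in the Nrf2-Pink1 siRNA samples, against 0.770, 0.663 and 0.818 in the scramble samples. All 9 siRNA samples were above all 3 scramble samples, Nrf2-Pink1 siRNA replicates 1 and 3 being equal to 3 digits although their TPM of both genes differed.

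AURKB over MAD2L1 was 1.16, 1.24 and 2.12 with Pink1 siRNA, 1.16, 2.42 and 1.46 with Nrf2 siRNA and 1.82, 0.979 and 1.69 with Nrf2-Pink1 siRNA, against 0.722, 0.850 and 0.638 with scramble. AURKB over BIRC5, both of the passenger complex, was at least 0.819 in the 9 siRNA samples and at most 0.779 in the scramble samples. MKI67 over TOP2A was at least 0.610 in the siRNA samples and at most 0.604 in the scramble samples. CCNB1 over CDC20 and KIF20A over PRC1 overlapped between siRNA and scramble.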
